A study of Mus musculus with 2 samples.

Results

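Hgf, Met, Gab1, Cxcl12, Cxcr4 and Ackr3 are 6 genes of the signalling that guides muscle precursors into the limb. They were taken by their symbols from the 32285 genes listed in each count matrix, and all 6 were found in both. The data are 2 single-cell RNA libraries from limb skeletal muscles of wild-type (WT) C57Bl/6 mouse embryos, 1 taken on embryonic day E12.5 and 1 on E15.5. Each held both fore- and hindlimb muscles, no treatment or mutant was part of the study, and the number and sex of the embryos are not in the labels. Because each age is a single library of pooled tissue, nothing below has a replicate check, no test between ages was possible, and every 95% interval covers counting error only.

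Hepatocyte growth factor, encoded by Hgf, is secreted by limb mesenchyme and binds the receptor tyrosine kinase MET on muscle precursors. The docking protein GAB1 sits beneath that receptor and links it to the signalling that lets precursors leave the somite and migrate. The chemokine CXCL12 acts through the receptor CXCR4, a second migration cue for limb muscle precursors and a cue for endothelial and immune cells, whereas ACKR3 is an atypical receptor that binds and clears CXCL12.

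After filtering, 11001 cells remained at E12.5 with a median of 2324 UMIs (unique molecular identifiers, 1 per captured RNA molecule), and 3916 at E15.5, with a median of 9325.5. Cell classes were rebuilt from marker genes without the 6 genes. The classes described most are connective tissue, muscle, endothelial and immune. Connective tissue held 8290 cells in the E12.5 library and 1201 in the E15.5 library. In the same order, muscle held 608 and 397, endothelial 131 and 158, and immune 11 and 85. Connective tissue here means limb mesenchyme in a broad sense, with clusters led by Gdf5 or by Gria2 and Isl1 among others. Its position relative to muscle was not measured. Clusters that took no name held 7.02% of the E12.5 cells and 26.3% of the E15.5 cells. The muscle class had UMIs of all 16 muscle markers at both ages, and their summed level was 13914 CPM (UMIs of a gene per 1000000 UMIs of the class) in the E12.5 library and 7742 CPM in the E15.5 library. The 2 libraries shared 10 cell barcodes among the cells kept.

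In GRCm38, Hgf (ENSMUSG00000028864) spans chr5:16553495-16620152 on the plus strand, where 2 other annotated genes, Gm43489 and Gm42975, overlap it on the same strand. Met (ENSMUSG00000009376) lies at chr6:17463800-17573980 and Cxcl12 (ENSMUSG00000061353) at chr6:117168535-117181367, both on the plus strand. Gab1 (ENSMUSG00000031714) lies at chr8:80764438-80880519 on the minus strand, with 2 genes overlapping it on the other strand and 0 on its own. Cxcr4 (ENSMUSG00000045382) lies at chr1:128588199-128592293 on the minus strand and Ackr3 (ENSMUSG00000044337) at chr1:90203980-90216751 on the plus strand. No other annotated gene overlapped Met, Cxcl12, Cxcr4 or Ackr3.

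The 150 bases before the RefSeq start are shown for the 2 ligands and for the receptors whose muscle levels differed most between the ages. They are the plus strand of build GRCm38.p6, from RefSeq, at chr5:16553345-16553494 (the first of 2 Hgf starts), chr6:117168385-117168534 (Cxcl12), chr6:17463807-17463956 (Met) and chr1:90203830-90203979 (Ackr3). The RefSeq start of Met lies inside the GENCODE gene given above, so its window does too. Capitals mark matches on either strand to 3 letter patterns: the TATA box TATAAA, the GC box GGGCGG and the E-box CANNTG, the pattern bound by myogenic and other basic helix-loop-helix proteins.
Hgf: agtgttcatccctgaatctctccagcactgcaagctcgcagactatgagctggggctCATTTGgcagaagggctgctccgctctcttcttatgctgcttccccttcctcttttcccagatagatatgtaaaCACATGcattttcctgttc
Cxcl12: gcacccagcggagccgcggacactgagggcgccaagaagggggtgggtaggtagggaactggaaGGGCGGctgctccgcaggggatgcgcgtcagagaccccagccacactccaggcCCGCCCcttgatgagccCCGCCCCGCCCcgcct
Met: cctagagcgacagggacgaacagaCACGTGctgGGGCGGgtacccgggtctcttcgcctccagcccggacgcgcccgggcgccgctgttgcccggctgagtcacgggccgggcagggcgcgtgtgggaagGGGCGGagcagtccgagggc
Ackr3: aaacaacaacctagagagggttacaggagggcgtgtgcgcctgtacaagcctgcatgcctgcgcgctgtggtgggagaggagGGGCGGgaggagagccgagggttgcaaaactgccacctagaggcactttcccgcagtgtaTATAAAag
The ligands shared no pattern in these windows: Hgf held 2 E-boxes and no GC box, and Cxcl12 held 4 GC boxes and no E-box. Met held 2 GC boxes and 1 E-box, and Ackr3 held 1 GC box and a TATA box that starts 8 bases before the RefSeq start. Among 32851 promoter windows of this length, 7.57% held the TATA box, 28.6% the GC box and 47.7% the E-box, and a match is a description of letters only.

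The first comparison asks which mesenchymal cells carried the ligands, and at what level at each age. Cxcl12 and Hgf were mesenchymal at both ages and were higher in connective tissue at E15.5. Cxcl12 went from 127 CPM (95% interval 122 to 132) to 202 CPM (195 to 210). The log2 ratio of E15.5 over E12.5 was 0.67 (0.60 to 0.75). Hgf went from 14.6 CPM (13.0 to 16.3) to 23.9 CPM (21.4 to 26.7), with a ratio of 0.72 (0.48 to 0.95). Neither reached the 2-fold difference (a log2 ratio of 1) that 10.7% of the 16591 genes tested in connective tissue passed upwards and 26.8% downwards, the tested genes being those with at least 10 UMIs over both ages. The connective tissue gene of median ratio was itself lower at E15.5, at -0.30 on the log2 scale, and relative to it the 2 ligands differed by 0.97 for Cxcl12 and 1.01 for Hgf. Scaled in that way, 14.9% of genes were at least 2-fold higher and 19.7% lower.

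Shares of cells had the same order at equal depth. After each cell was thinned to 2000 UMIs, a Cxcl12 UMI was held by 18.5% of 5080 E12.5 connective tissue cells and by 28.9% of 1197 E15.5 ones, against 21.4% and 61.8% before thinning, when the median depths were 2267 and 9883 UMIs. For Hgf the thinned shares were 2.30% and 5.26%. Thinning left out 3210 shallower cells of the E12.5 class and 4 of the E15.5 class. Among thinned cells with an Hgf UMI, 30 of 117 at E12.5 (25.6%, 18.02% to 34.5%) also held Cxcl12, against 18.3% of the cells without Hgf. The later figures were 22 of 63 (34.9%, 23.3% to 48.0%) and 28.6%, so the intervals reach down to the cells without Hgf.

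The ligand ratios were also taken in male and female cells apart, a split made after seeing the data; sex and embryo cannot be told apart in it. In male connective tissue cells, those with RNA of a Y-linked gene but none of Xist, the Hgf ratio was 0.14 (-0.41 to 0.69) and the Cxcl12 ratio 0.41 (0.22 to 0.61), while in the female cells they were 0.88 (0.58 to 1.18) and 0.74 (0.64 to 0.84). The Hgf intervals overlapped and the Cxcl12 intervals did not. The classes also held different clusters at the 2 ages, many led by patterning or cell cycle genes at E12.5 and a few led by Fst, Dpt or Hmmr at E15.5.

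**Figure D1:**
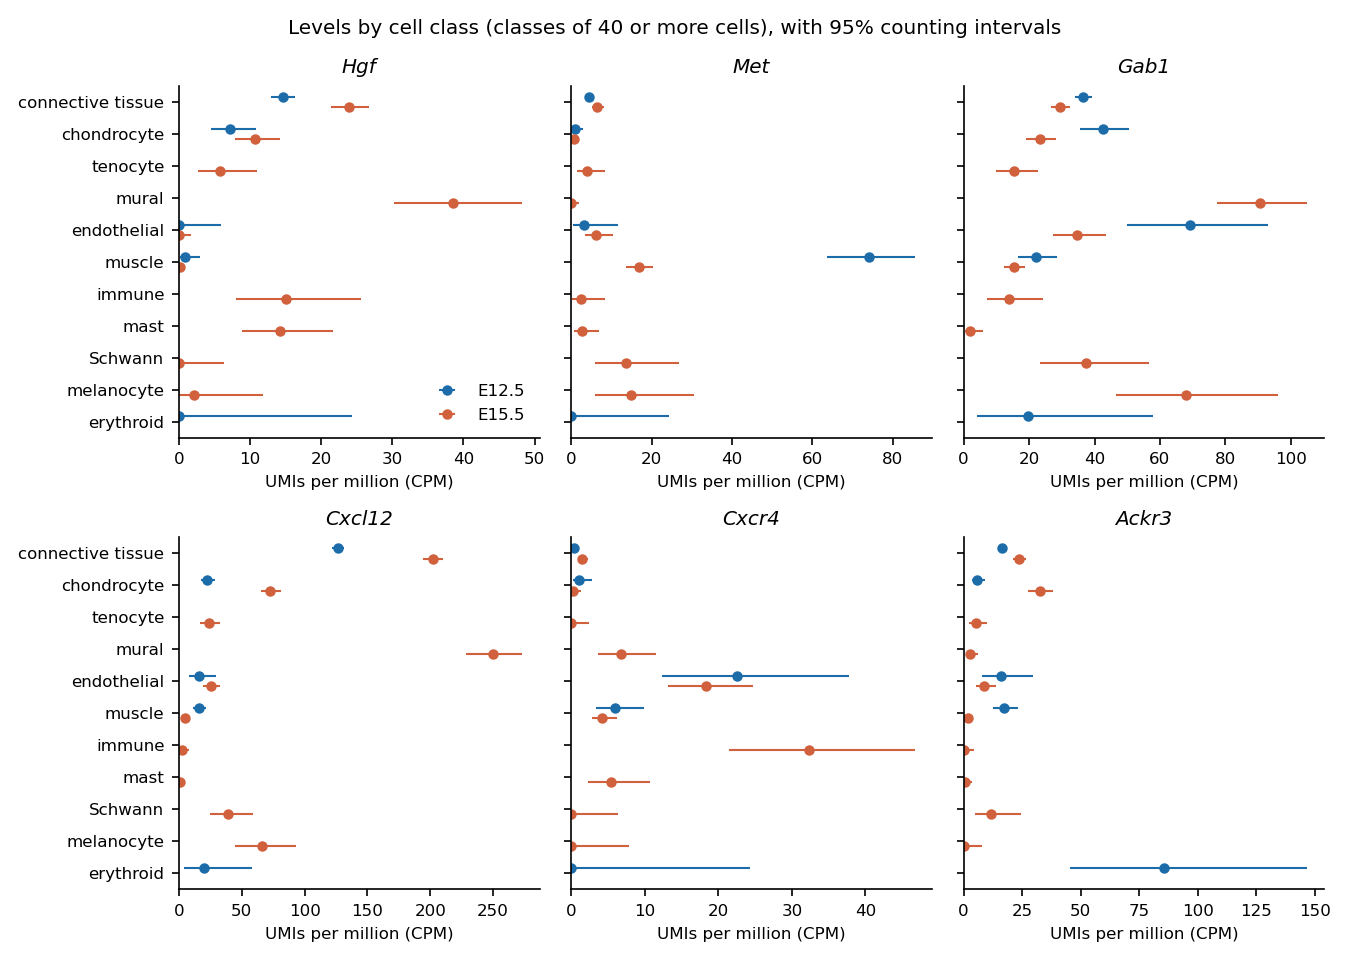
Levels of the 6 genes by cell class in CPM (linear axis from 0), E12.5 in blue and E15.5 in orange, for classes of 40 or more cells; bars are 95% counting intervals. Cxcl12 and Hgf lie in connective tissue and in the cluster named mural, Met in muscle at E12.5, and Cxcr4 in endothelial and immune cells.

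Connective tissue held 90.5% of all E12.5 Cxcl12 UMIs and 52.6% of the E15.5 ones. The unnamed clusters held a further 27.5% at E15.5, and the mural class 9.58%. For Hgf the connective tissue shares were 85.3% and 46.4%, with 28.9% in unnamed clusters at E15.5. Counting all genes, connective tissue made up 71.8% of the earlier library's UMIs but only 32.0% of the later one's. Its shares of both ligands were above these figures, so their fall does not mean lower ligand levels in the class. The unnamed clusters made up 18.3% of the later library's UMIs. Most of those unnamed E15.5 cells were in clusters led by Aldh1a3, Cntfr and Ngfr (423 cells) or by Nefm, Sfrp2 and Tac1 (308 cells), where Cxcl12 stood at 185 and 221 CPM and Hgf at 20.6 and 35.6 CPM. Both ligands were thus as high there as in many named connective tissue clusters.

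Within the mesenchyme the ligands were patchy. At E12.5, Cxcl12 was highest in a cluster of 341 cells led by Aldh1a2, the retinoic acid synthesis enzyme, with Postn and Tshz2, at 339 CPM (299 to 382). Clusters led by Twist2 and by Ebf2 followed at 222 and 200.3 CPM, and their intervals overlapped. The lowest connective tissue levels were 50.2 CPM in the cluster led by Gria2 and Isl1 and 45.5 CPM in the cluster led by Barx1 and Pax9, whose intervals also overlapped. The top and bottom clusters thus differed by far more than counting error.

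Hgf followed a partly different map at E12.5. It was highest in the cluster led by Tbx3os1, Aspn and Hand2os1, at 43.4 CPM (29.3 to 62.0), and in the Ebf2 cluster, at 35.0 CPM (26.1 to 45.8). The Grem1 and Dcn cluster held 27.4 CPM and the Aldh1a2 cluster 22.8 CPM. The Isl1 cluster, also low for Cxcl12, was lowest in connective tissue for Hgf, at 4.48 CPM (1.46 to 10.5).

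At E15.5, both ligands were high in the largest connective tissue cluster, 661 cells led by Fst, Sfrp4 and Clec3b, with Cxcl12 at 274 CPM (261 to 287) and Hgf at 35.3 CPM (30.8 to 40.3). Fibroblasts led by Dpt, Apod and Cd55 held less of both, at 97.3 and 11.3 CPM. The cluster led by Twist2, Stmn2 and Irx1 was the low end: Cxcl12 stood at 59.8 CPM and 0 Hgf UMIs were counted in its 85 cells, which allows up to 2.94 CPM. Over clusters of at least 50 cells, the log levels of Hgf and Cxcl12 correlated with Pearson's r of 0.69 over 26 clusters at E12.5 and 0.71 over 19 at E15.5, a description of clusters of every class, including those with almost no Hgf, that share a library. One shallow unnamed cluster of 64 cells at E15.5, led by the noncoding genes Gm26917, B830012L14Rik and Rian, held 100.3 CPM of Hgf from 19 UMIs.

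**Figure D2:**
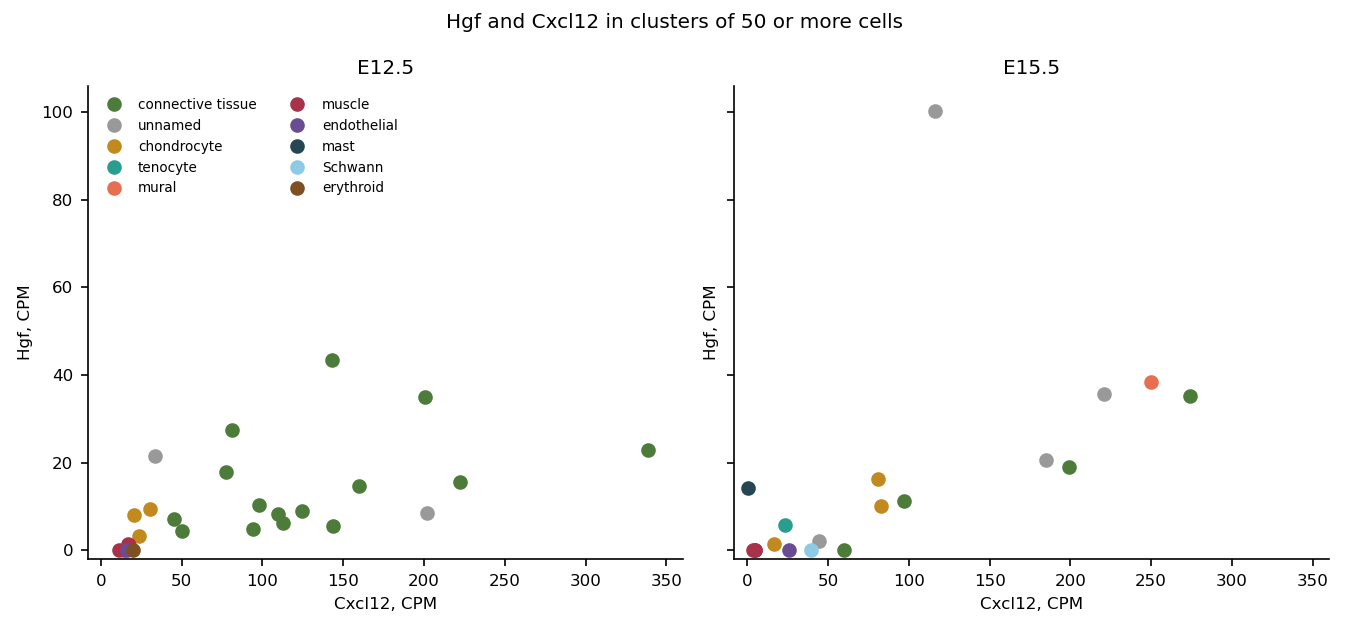
Hgf against Cxcl12 in CPM for each cluster of 50 or more cells, E12.5 left and E15.5 right, coloured by class; both axes are linear. Muscle, endothelial and erythroid clusters sit near the origin for Hgf, connective tissue clusters spread along Cxcl12, and the point at 100.3 CPM Hgf is the unnamed cluster led by noncoding genes.

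The cluster named mural at E15.5 had the highest class levels of Cxcl12, 249.98 CPM (228 to 273), of Hgf, 38.5 CPM, and of Gab1, 90.4 CPM (77.5 to 105), whose interval overlapped that of melanocytes. At a finer clustering its 139 cells fell into a group of 72 led by Rgs5, Myh11 and Gucy1a1, genes of pericytes and smooth muscle, and a group of 67 led by Aldh1a2, Cxcl13 and Il33 that carried the fibroblast genes Dcn at 1150 CPM and Pdgfra at 104 CPM and took the connective tissue name. The second group held more of both ligands: Cxcl12 stood at 386 CPM (345 to 430) against 144 CPM (122 to 168), and Hgf at 68.7 CPM (52.2 to 88.8) against 14.8 CPM (8.47 to 24.1). Gab1 was nearly even, at 82.9 and 96.3 CPM with overlapping intervals. The Cxcl12-rich group, like the E12.5 connective tissue cluster highest for it, was led by Aldh1a2; the 2 groups were picked out after their values had been seen.

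Muscle cells held almost no Hgf, 2 UMIs in the E12.5 library and 1 in the E15.5 library, and endothelial cells 0 at both ages, which allows at most 4.82 CPM and 1.34 CPM in turn. Muscle Cxcl12 went from 15.6 to 5.06 CPM, which is 12.3% and then 2.50% of the connective tissue level. The 14 connective tissue markers, counted here as a measure of background, stood in muscle at a median of 9.29% of their connective tissue level at E12.5 (4.31% to 93.7%) and 3.03% at E15.5 (0.881% to 21.9%). Muscle Cxcl12 lay within those ranges, the first of which is wide, and the part of background RNA in it was not tested.

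The second comparison asks whether muscle cells still carried the receptors at E15.5. Met was the member with the clearest muscle pattern and was lower there at E15.5. Its muscle level went from 74.0 CPM (63.7 to 85.4), on 185 UMIs, to 16.8 CPM (13.7 to 20.4), on 103 UMIs, and the log2 ratio was -2.14 (-2.50 to -1.78). In the muscle class 21.6% of 12588 genes were lower by at least 2-fold and 5.64% higher, so a difference in this direction was common, although Met was 4.40-fold lower. The muscle gene of median ratio was lower by -0.39 on the log2 scale, and relative to it Met stood at -1.75; with that scaling 11.9% of genes were lower and 11.5% higher by 2-fold or more. In bulk or summed RNA, fewer cells of a state and less RNA per cell cannot be told apart.

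Thinned to 2000 UMIs, 84 of 555 muscle cells held a Met UMI at E12.5 (15.1%, 12.3% to 18.4%) and 14 of 390 at E15.5 (3.59%, 1.98% to 5.95%). Before thinning the shares were 25.3% and 20.7% at median depths of 3749 and 14288 UMIs. Chondrocytes, taken as a class that should lack Met, held it after thinning in 2 of 814 cells (0.246%) and later in 0 of 555, which sets a limit of 0.541%; their median depths were 2543 and 7085 UMIs. Endothelial cells held it in 0 of 118, with a limit of 2.54%, and later in 2 of 137 (1.46%). The muscle share was above the chondrocyte share at both ages.

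The Met difference was smaller in male cells. Their muscle level was 62.7 CPM at E12.5 (40 UMIs in 143 cells) and 28.03 CPM at E15.5 (30 UMIs in 65 cells), a log2 ratio of -1.16 (-1.90 to -0.44), whereas the female cells went from 77.9 to 14.5 CPM, a ratio of -2.42 (-2.90 to -1.95). The sexes stand for different embryos of the same pools, and sex and embryo cannot be told apart here.

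Met also followed the muscle state. Progenitors were taken as muscle cells with a Pax7 or Myf5 UMI, transcription factor genes of progenitors and early myoblasts, and no UMI of Myog, the gene of the differentiation factor myogenin; the others were muscle cells with a Myog UMI. At E12.5 Met stood at 96.8 CPM (76.5 to 121) in 195 progenitors and 39.7 CPM (29.1 to 53.0) in 260 Myog cells, a log2 ratio of 1.29 (0.74 to 1.84). At E15.5 it stood at 20.8 CPM and 11.1 CPM, a ratio of 0.90 (0.26 to 1.58). The lower Met at E15.5 was present in both states, with log2 ratios of -2.22 (-2.71 to -1.73) in progenitors and -1.84 (-2.55 to -1.14) in Myog cells. The 153 E12.5 muscle cells with no UMI of these 3 genes held 114 CPM (87.0 to 146), an interval that overlaps that of the progenitors.

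By cluster, Met at E12.5 ran from 122 CPM in muscle cells led by Msc, Pax7 and Kcne1l, through 84.3 CPM in a second Pax7 cluster and 34.3 CPM in the Myog and Mymx cluster, to 11.5 CPM in fibre-forming cells led by Myh3. At E15.5 the matching order was 24.8, 14.5 and 12.7 CPM, with 0 UMIs in 20 cells led by Mylpf, Tnnc2 and Acta1, which allows up to 6.99 CPM. At E12.5 the intervals of 122 and 84.3 CPM overlapped, as did those of 34.3 and 11.5 CPM, while those of 84.3 and 34.3 CPM did not. At E15.5 the intervals of 24.8, 14.5 and 12.7 CPM all overlapped, so the order of those clusters is within counting error.

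**Figure D3:**
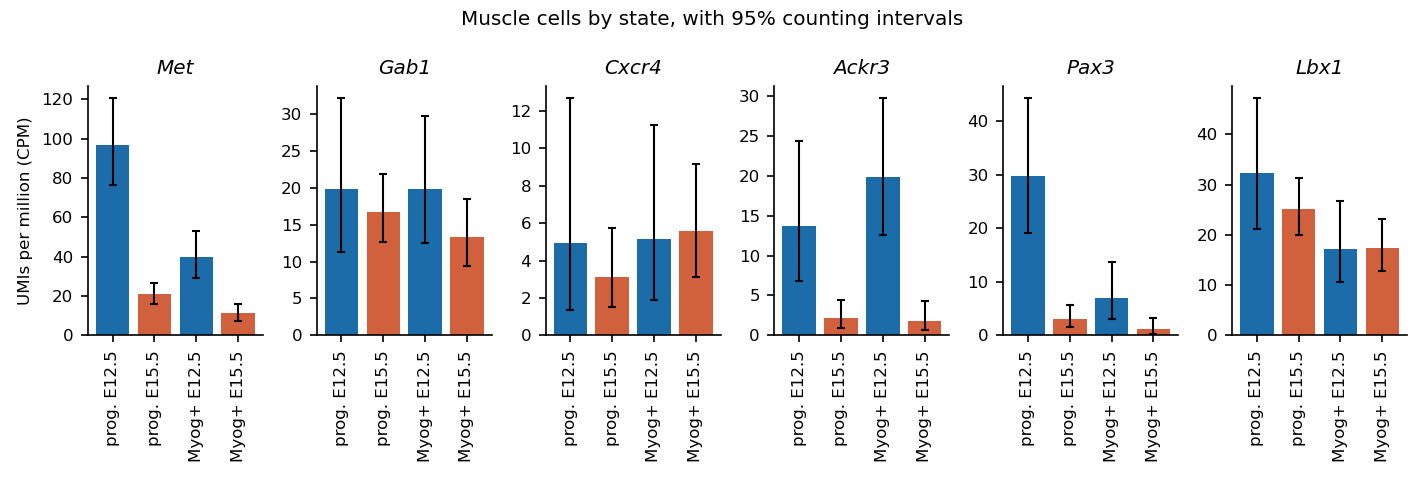
CPM of Met, Gab1, Cxcr4, Ackr3, Pax3 and Lbx1 in muscle cells that met the progenitor gate (Pax7 or Myf5 UMI, no Myog UMI) or the Myog gate, E12.5 in blue and E15.5 in orange; bars start at 0 and whiskers are 95% counting intervals. Met, Ackr3 and Pax3 are lower at E15.5 in both states, while the intervals of Gab1, Cxcr4 and Lbx1 overlap between the ages. The gates rest on single UMIs at unlike depths and need not pick like cells at both ages.

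Regulators of migrating precursors differed among themselves. Pax3, the transcription factor gene of limb precursors, went from 17.99 to 2.12 CPM in muscle, a log2 ratio of -3.08 (-4.10 to -2.17). Lbx1, the homeobox gene needed for lateral migration, stood at 24.8 and 21.4 CPM, a ratio of -0.21 (-0.66 to 0.25), and Pax7 at 116 and 116 CPM.

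Among E12.5 muscle cells thinned to 2000 UMIs, 8 of 84 with a Met UMI held a Lbx1 UMI (9.52%, 4.202% to 17.9%) against 16 of 471 without (3.40%, 1.95% to 5.46%). For Pax3 these were 7 of 84 (8.33%, 3.42% to 16.4%) and 11 of 471 (2.34%, 1.17% to 4.14%). The intervals overlap, and with 1 library they describe these cells only.

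Gab1 was broadly spread rather than muscle-based. In muscle it went from 22.0 CPM (16.6 to 28.6) to 15.3 CPM (12.4 to 18.8). The ratio was -0.52 (-1.01 to -0.01), and -0.13 once scaled to the median gene. Connective tissue held 36.6 and 29.4 CPM, or -0.02 relative to its median gene. In endothelial cells Gab1 went from 69.1 CPM (49.98 to 93.02), the highest level among E12.5 classes of 40 or more cells, to 34.7 CPM (27.5 to 43.4). The chondrocyte interval, 35.5 to 50.5 CPM, reached into the E12.5 endothelial one. The endothelial ratio was -0.99 (-1.55 to -0.42) where 14.4% of genes were at least 2-fold lower and 9.32% higher. The mean of the per-cell levels gave only -0.41 for that ratio. Gab1 in muscle thus differed between the ages about as much as the median gene did, while Met differed by more.

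Of the 15 listed genes of MET signalling, all were testable in muscle; 2 were at least 2-fold lower, Sos1, an exchange factor for RAS, at -1.13 and Pik3r1, a regulatory subunit of PI 3-kinase, at -2.11, and 0 were higher, beside 21.6% lower and 5.64% higher over all muscle genes. The list median was -0.67 beside -0.38 over all genes tested. Genes that activate or block the HGF protein were mostly too rare: of 7 listed, 1 had enough UMIs in muscle and 2 in connective tissue. Spint2, an inhibitor of the proteases that activate HGF, went from 30.4 to 6.12 CPM in connective tissue, a log2 ratio of -2.31. There 26.8% of genes were at least 2-fold lower. Its ratio was also negative in muscle, at -1.02. It was positive in chondrocytes, at 1.16 (0.49 to 1.87), and in endothelial cells, at 2.40. Mst1r, the receptor of the other ligand of this family, stood in connective tissue at 0.936 and 3.75 CPM, from 19 and 49 UMIs.

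Met was not confined to muscle. Connective tissue went from 4.29 CPM (3.43 to 5.29) to 6.4999 CPM (5.19 to 8.04), which gives 0.60 (0.15 to 1.05) as a log2 ratio. It held 30.3% and then 35.6% of all Met UMIs, beside 71.8% and then 32.0% of the UMIs of all genes. Its E12.5 share of Met was thus far below its share of all UMIs. At E15.5, 46 of the 85 Met UMIs of connective tissue lay in the Dpt, Apod and Cd55 cluster, where 30 of 205 cells held one. Met reached 20.7 CPM (15.2 to 27.6) there, which is 123% of the muscle level. That interval overlaps the one of E15.5 muscle, 13.7 to 20.4 CPM. Muscle markers in those cells summed to 0.762% of their muscle level. At E12.5 the highest connective tissue level was 14.0 CPM (6.97 to 25.0) in the Aldh1a2 cluster, from 11 UMIs, with muscle markers at 1.12% of their muscle level.

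The connective tissue difference for Met did not hold up. It was -0.38 when cells were classed by markers alone, and 0.10 (-0.33 to 0.54) when the unnamed mesenchymal clusters were added. In E15.5 endothelial cells Met rested on 14 UMIs in 7 cells, 6 of them in 1 cell. E15.5 Schwann cells held 13.6 CPM of Met (5.88 to 26.9), from 8 UMIs in 7 of 50 cells. The E15.5 melanocyte class held 14.9 CPM (5.98 to 30.6), from 7 UMIs in 4 of 43 cells. Both intervals overlapped that of E15.5 muscle, 13.7 to 20.4 CPM.

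**Figure D4:**
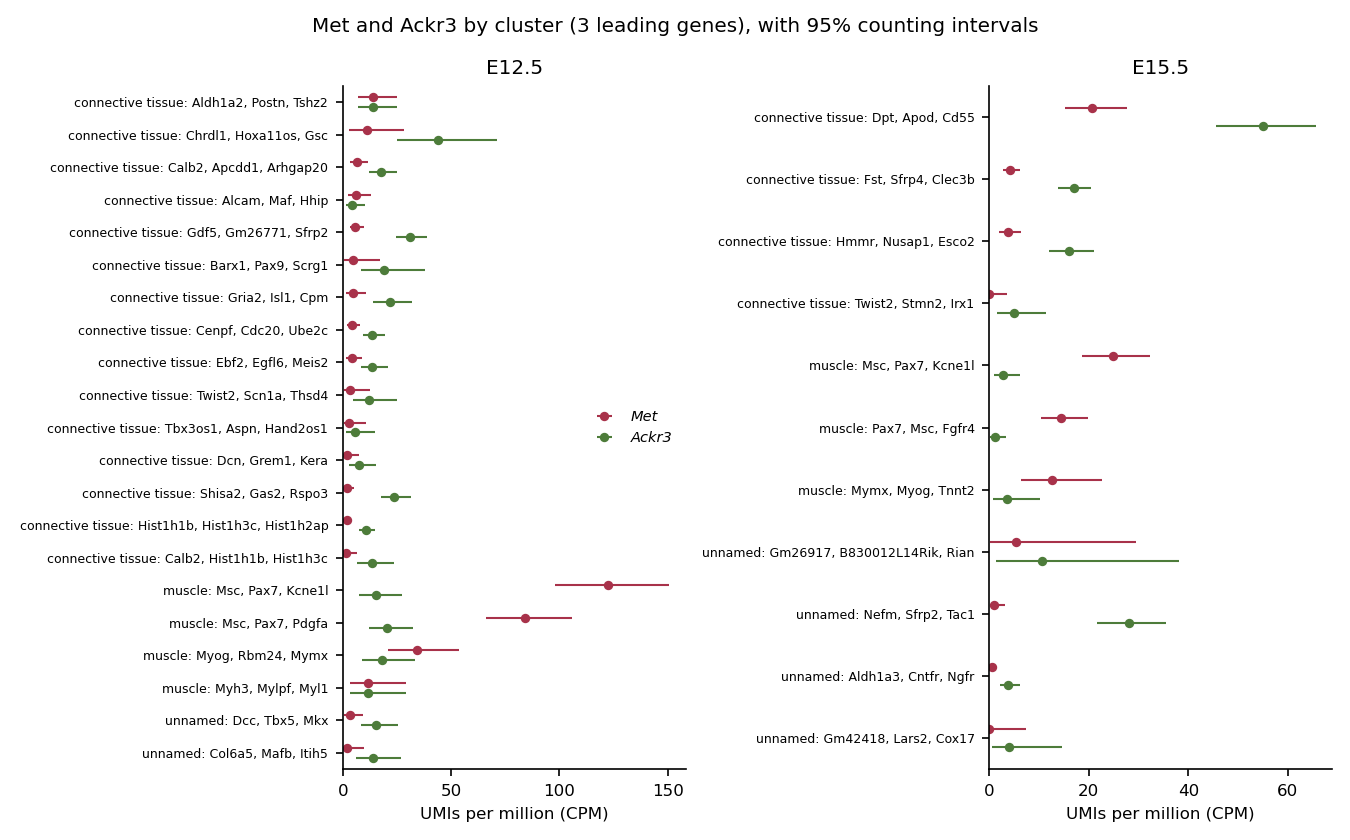
Met (red) and Ackr3 (green) in CPM for each connective tissue, muscle and unnamed cluster of 50 or more cells with a median of at least 1000 UMIs, named by its 3 leading genes, E12.5 left and E15.5 right on different linear axes; bars are 95% counting intervals. At E12.5 Met is highest in the muscle clusters led by Msc and Pax7. At E15.5 the Dpt, Apod and Cd55 cluster holds 20.7 CPM of Met and 54.9 CPM of Ackr3. Its Met lies between the muscle clusters at 24.8 and 14.5 CPM, and its interval overlaps both of theirs.

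The third comparison follows the CXCL12 receptors in muscle, vessels and immune cells. Cxcr4 was sparse in every class: 42 UMIs were counted over all E12.5 cells and 145 over all E15.5 cells. Muscle went from 6.00 CPM (3.36 to 9.89) to 4.24 CPM (2.77 to 6.22), on 15 and 26 UMIs, and the ratio, -0.50 (-1.47 to 0.52), allows either direction. The 2 muscle states did not differ beyond their intervals at either age. In connective tissue, Cxcr4 stood at 0.394 and 1.45 CPM, from 8 and 19 UMIs, below the muscle intervals.

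Met and Cxcr4 UMIs met in few muscle cells. Without thinning, 5 of the 15 cells with a Cxcr4 UMI at E12.5 and 9 of the 23 at E15.5 also held a Met UMI, against 154 of 608 and 82 of 397 muscle cells in all. After thinning, 0 of 84 E12.5 cells with Met held a Cxcr4 UMI, with an upper binomial bound of 4.296%, and 0 of 14 E15.5 cells, with a bound of 23.2%. The depth therefore cannot show whether the pair is kept apart.

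Endothelial Cxcr4 went from 22.5 CPM (12.3 to 37.7) to 18.3 CPM (13.1 to 24.8), and its ratio, -0.30 (-1.20 to 0.69), likewise allows either direction. At E15.5 the 41 UMIs lay in 16 of 158 cells, with 25 of them in 5 cells. Cxcl12 also stood in a few endothelial cells at E15.5: 57 UMIs lay in 14 cells, 45 of them in 5 cells, at 25.4 CPM for the class. Of those 14 cells 6 also held a Cxcr4 UMI. Endothelial Cxcl12 was 12.6% of the connective tissue level at E15.5, where the highest of the 14 connective tissue markers stood at 2.41%. The E12.5 library had 10 UMIs in 10 cells, 12.7% against a highest marker of 7.51%. The age difference of endothelial Cxcl12, 0.66 (-0.32 to 1.80), was within counting error. Endothelial Ackr3 stood at 16.1 and 8.91 CPM, from 10 and 20 UMIs. Its ratio, -0.85 (-2.01 to 0.41), was within counting error as well.

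Among immune cells, Cxcr4 at E15.5 stood at 32.3 CPM (21.5 to 46.7), from 28 UMIs in 11 of 85 cells, 22 of them in 5 cells and 13 in 2 cells. It was 70.8 CPM (42.7 to 111) in 44 cells led by Lyz2, S100a8 and Cd52, genes of neutrophils and other myeloid cells, and 15.04 CPM (6.88 to 28.6) in 41 cells led by the macrophage genes C1qb, Pf4 and C1qc. The Lyz2 cells were also shallower, with a median of 1968 against 13813 UMIs. At E12.5 the class had 11 cells and 0 Cxcr4 UMIs, which allows up to 61.5 CPM, and so gives no comparison; with doublets left in, 65 cells held 27.7 CPM from 9 UMIs, beside 34.6 CPM at E15.5. In the immune class 28.7% of genes were at least 2-fold higher and 22.2% lower. Ackr3 had 0 UMIs in the E15.5 immune cells, which sets a limit of 3.46 CPM.

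Ackr3, the gene of the CXCL12 scavenging receptor, was lower in muscle at E15.5. It went from 17.2 CPM (12.4 to 23.2), on 43 UMIs in 42 of 608 cells, to 1.96 CPM (1.01 to 3.42), on 12 UMIs in 10 of 397 cells. The ratio was -3.13 (-4.19 to -2.19), and -2.75 once scaled to the median gene; its interval overlapped that of Met. Thinned shares were 3.42% and 0.769%. Progenitors showed -2.65 (-4.25 to -1.15) and Myog cells -3.42 (-5.17 to -1.99), by gates that need not pick like cells at both ages. The E12.5 muscle level was 104% of the connective tissue level, above the highest of the 14 connective tissue markers in muscle, 93.7%. The E15.5 level, 8.26%, lay above the median of those markers, 3.03%, and below their highest, 21.9%.

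Connective tissue Ackr3 went from 16.5 CPM (14.8 to 18.4) to 23.7 CPM (21.1 to 26.5), which gives 0.52 (0.29 to 0.75) as a log2 ratio, or 0.27 with the unnamed mesenchymal clusters added. At E12.5 it was highest in the cluster led by Chrdl1, Hoxa11os and Gsc, at 43.8 CPM (25.0 to 71.1), and in the Gdf5 cluster, at 31.0 CPM (24.4 to 38.7), 2 clusters whose Cxcl12 was 109 and 77.4 CPM. At E15.5 the Dpt cluster held 54.9 CPM (45.6 to 65.6) and a cluster of 41 cells led by Spink6, Anxa8 and Pi16 held 60.3 CPM (39.8 to 87.8), against 16.9 CPM in the Fst cluster. The clusters with the most Ackr3 were thus not those with the most Cxcl12 at either age.

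In chondrocytes Ackr3 stood at 5.89 CPM and 32.6 CPM, a log2 ratio of 2.47 (1.76 to 3.26), where 12.1% of genes were at least 2-fold higher and 15.8% lower. At E15.5 the class was mostly a cluster led by Mia, Dkk3 and Mecom (355 of 556 cells, 39.3 CPM), and in the E15.5 cluster led by Matn1, the type that made up the class at E12.5, Ackr3 stood at 22.9 CPM (12.8 to 37.8). Cxcl12 in chondrocytes took opposite directions under other ways of forming the class, and no direction is given for it.

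Erythroid cells held Ackr3 at 85.8 CPM (45.7 to 147) at E12.5, the highest level of any class at that age, from 13 UMIs in 12 of 50 cells; thinned, 10 of 44 cells (22.7%) held one, against 2.85% of connective tissue cells. At E15.5 the 15 erythroid cells held 0 UMIs, which allows up to 15.48 CPM. With other filters or more variable genes, which enlarged the E15.5 class to between 64 and 350 cells, it held 22.1 to 36.7 CPM.

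**Figure D5:**
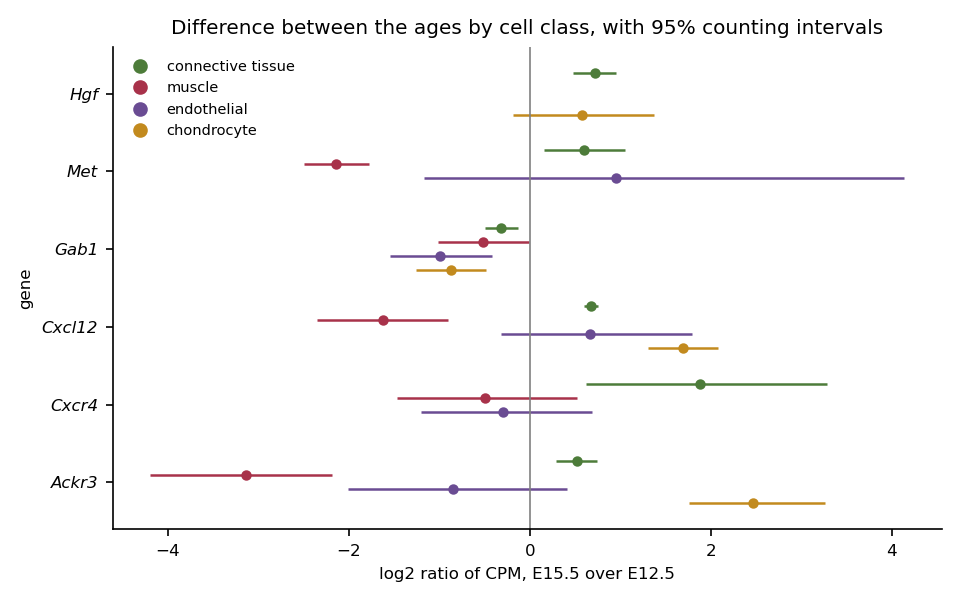
Log2 ratio of CPM, E15.5 over E12.5, for the members with at least 10 UMIs over both libraries in connective tissue, muscle, endothelial cells and chondrocytes; bars are 95% counting intervals and 0 means equal levels. Met and Ackr3 lie far below 0 in muscle (-2.14 and -3.13). In connective tissue they lie at 0.60 and 0.52, but Met there was -0.38 with classes from markers alone and 0.10 with the unnamed mesenchymal clusters added.

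Of 9 testable genes of CXCL12 receptor signalling in muscle, 1 was at least 2-fold higher at E15.5, Elmo1, a partner of the exchange factors that activate RAC, from 3 to 48 UMIs, and 1 lower, Ptk2, encoding focal adhesion kinase, at -1.01, beside 5.64% higher and 21.6% lower over all muscle genes. Their median was -0.49 beside -0.38 over all genes tested. Dpp4, the gene of a protease that cuts CXCL12 at its start, went in connective tissue from 0.443 CPM (9 UMIs) to 21.0 CPM (275 UMIs), a log2 ratio of 5.57.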

How the data were processed

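Raw UMI counts, 1 matrix per library, were deposited; the file headers name Cell Ranger 4.0.0, and the submitters' processing notes name build mm10 and Seurat 4.3.0. The matrices held 12941 barcodes with 34907675 UMIs at E12.5 and 5780 with 46966083 at E15.5. Barcodes under 500 genes (604 and 1376) or at 10% or more mitochondrial UMIs (166 and 644, some in both sets) were left out, and doublets were scored against simulated ones and removed at 0.8% per 1000 barcodes (1270 and 190). Barcodes shared by the deposited matrices numbered 17.

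Each library was clustered alone in Python 3.11.15 (scikit-learn 1.9.0, leidenalg 0.10.2): 2000 variable genes, 30 components, 15 neighbours, Leiden resolution 1.0. The 6 genes and all listed genes were left out of the variable genes. Clusters were named where at least 3 markers were 2-fold higher and detected in 10% of cells and 1 was among the top 10 genes. Clusters left over were named connective tissue where 3 of its markers were 2-fold higher than in the named muscle, vessel, blood, nerve, pigment and epithelial clusters. This naming rule was set after the clusters had been seen. One E12.5 cluster tied between immune and epithelial markers was split cell by cell.

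UMIs were summed per class and scaled to CPM. Intervals are exact Poisson, exact binomial (Clopper-Pearson) or exact conditional at 95%; the limit for 0 is 3 counts. No test was made, since each age is 1 library. Genes counted in a list had at least 10 UMIs in the class over both ages, those named at least 50, and up to 4 per list. Likeness between genes was Pearson's r of log CPM (10 CPM added) over clusters of at least 50 cells, lower of both ages, for genes of at least 100 UMIs. The intervals and the likeness ranking were tested on simulated data. Positions come from GENCODE vM21. The 6 genes, the lists and the markers were chosen with earlier results of these data known. The counts over 1 gene list, the regulators of limb precursors, are not reported here.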

Additional observations from a re-analysis of the deposited data

Results flagged for a closer look

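The ratios of Met, Cxcl12 and Ackr3 between the ages had opposite signs in different classes. The differences between classes were not tested, since each class has 1 library per age. For Met the log2 ratio of E15.5 over E12.5 was 0.60 in connective tissue and -2.14 in muscle; the connective tissue ratio was -0.38 with classes from markers alone and 0.10 (-0.33 to 0.54) with the unnamed mesenchymal clusters added. For Cxcl12 it was 0.67 in connective tissue, 1.69 in chondrocytes and -1.62 in muscle. The muscle levels lay within the range of connective tissue markers there, which was wide at E12.5 (4.31% to 93.7%). The chondrocyte ratio changed sign with the way cells were classed. For Ackr3 it was 0.52 in connective tissue, 2.47 in chondrocytes and -3.13 in muscle.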

How the results depend on the processing

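Of 143 recomputed values of 23 results, 113 moved by less than counting error, 27 by more, and 3 changed the sign of a ratio whose interval excluded 0. Cxcr4, whose intervals include 0, also crossed it, at 0.06 in female muscle cells and 0.03 in endothelial cells relative to the median gene. Hgf in connective tissue was 1.00 with doublets kept, 1.01 relative to the median gene and 0.14 in male cells. Cxcl12 there was 0.58 at resolution 0.5, 0.76 at resolution 2.0, 0.26 with classes from markers alone, 0.41 in male cells, 0.97 relative to the median gene and 0.77 as the mean of per-cell CPM. Ackr3 there was 0.27 with doublets kept, 0.29 in male cells, 0.27 with unnamed mesenchymal clusters added and 0.81 relative to the median gene. Met in muscle was -1.16 in male cells and -1.75 relative to the median gene, and ranged from -2.42 to -1.16 over all 10 alternatives; Ackr3 in muscle ranged from -3.65 to -2.62. Changes of sign were Met in connective tissue with classes from markers alone, -0.38, and Cxcl12 in chondrocytes at resolution 0.5, -0.60, and with markers alone, -0.90. The cause was not tested. Thinning to 1000 UMIs gave 8.85% and 1.26% of muscle cells with a Met UMI at E12.5 and E15.5, 11.3% and 18.7% of connective tissue cells with a Cxcl12 UMI, and 15.1% and 19.4% of Hgf cells with a Cxcl12 UMI, where 2000 UMIs had given 25.6% and 34.9%; fewer UMIs per cell lower every such share. Met in E12.5 progenitors over Myog cells was 1.99 with states taken from clusters. Male cells, female cells, the added clusters and the results on Ackr3 in muscle and chondrocytes, Met in connective tissue, Cxcl12 in chondrocytes and Gab1 in endothelial cells were chosen after seeing the data. The immune Cxcr4 ratio has no value, with 0 UMIs at E12.5, and endothelial Cxcl12 has none in male cells. Depth limits Cxcr4 throughout. No paired analysis was possible because each age has 1 library.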

Other observations

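Genes most like each member over clusters, taken as the highest of the lower r of both ages over 26 and 19 clusters, were Rnf24 (0.88 and 0.84), Tshz2 and Tbx18 for Cxcl12, and Wdr60 (0.81 and 0.82), Dtx3 and Tmem67 for Hgf. For Met they were Vgll3 (0.83 and 0.65), a transcription cofactor gene, Rbm34 and Frmd3. For Cxcr4 they were Pdgfb (0.88 and 0.83), the growth factor gene of endothelial cells, Calcrl and Ipo11, a ranking that rests on 42 and 145 Cxcr4 UMIs. For Gab1 they were Kctd17, Arpin (0.69 and 0.81) and Mylk, and for Ackr3 Ube2h (0.57 and 0.55), Yipf4 and Tcp11l2. Clusters of a library share its depth and background RNA, and no test was made.

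Connective tissue cells with a Tbx5 UMI, a forelimb gene, and those with a Tbx4 or Pitx1 UMI, hindlimb genes, gave opposite orders of the ligands at the 2 ages. At E12.5 Hgf was higher in Tbx5 cells (21.4 against 11.98 CPM, a log2 ratio of 0.83, 0.28 to 1.36) and Cxcl12 lower (102 against 129 CPM, -0.34). At E15.5 Hgf was lower in Tbx5 cells (19.2 against 29.7 CPM, -0.63, -1.18 to -0.11) and Cxcl12 higher (286 against 172 CPM, 0.73). The Tbx5 cells numbered 809 and 149 at the 2 ages, against 3200 and 543. The E12.5 cluster of 512 cells led by Dcc, Tbx5 and Mkx took no name, so it is not in the connective tissue class. The groups were not matched for cluster, so limb and cluster cannot be told apart here, and the cause was not tested.

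A few cells carried most UMIs in rare classes. Of 21 Hgf UMIs in 70 mast cells at E15.5, 20 lay in 1 cell, and of 13 in 85 immune cells 9 lay in 1 cell. Of 8 Cxcr4 UMIs in mast cells 7 lay in 1 cell. Epithelial cells at E12.5, 16 in number, held 98.8 CPM of Met from 5 UMIs in 5 cells. Melanocytes at E15.5, 43 cells, held 68.0 CPM of Gab1 from 32 UMIs in 20 cells.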
